A study of Bos taurus with 31 samples.

Results

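Immediate early genes are switched on within minutes by growth factors, cytokines, stress or injury, from transcription factors that already sit in the cell, so they need no new protein synthesis. Their mRNAs are short-lived, and most of them code for transcription factors that act on a later wave of genes. In liver they are known for a transient burst after partial removal of the organ and during the acute phase reaction. The 10 genes described here were taken by symbol from the count table: FOS (ENSBTAG00000004322), FOSB (ENSBTAG00000008182), JUN (ENSBTAG00000004037), JUNB (ENSBTAG00000012046), ATF3 (ENSBTAG00000008545), EGR1 (ENSBTAG00000010069), KLF6 (ENSBTAG00000015188), MYC (ENSBTAG00000008409), IER2 (ENSBTAG00000016354) and DUSP1 (ENSBTAG00000013863). Each has 1 row among the 24616 genes listed, and all 10 passed a filter of 20 reads over the whole set of cows, as did 15916 genes in total. None of the 10 passed the test between feeding groups in any of 7 comparisons, while their levels moved together from biopsy to biopsy inside the groups.

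RNA sequencing was done on liver biopsies of 31 lactating German Holstein cows at week 16 of feeding. Cows of the GLY groups ate a ration containing peas, grain and straw with residues of a glyphosate herbicide, and cows of the CON groups ate a control ration. Each was fed with a high (HC, 60% of dry matter) or a low (LC, 30%) proportion of concentrate, which gave CONHC (n = 8), CONLC (n = 8), GLYHC (n = 8) and GLYLC (n = 7, after the samples of 1 cow were lost). Biopsies were taken by puncture after local lidocaine and frozen at once in liquid nitrogen. Each cow gave 1 library, named here by its group and the number of the animal.

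Read totals over all genes lay between 11675775 and 36675542 per cow, with group medians from 15639368 in CONHC to 22532846 in CONLC. All 10 hepatocyte markers were read in every cow, ALB among them at 42900 to 147000 CPM, the reads of a gene scaled to the TMM-corrected size of its library. The biopsy of GLYLC cow 912 stood apart, because it held 206 CPM of FABP2, an intestinal fatty acid binding protein that had no read in 24 of the 31 cows. It also had a high mean log2 CPM of stellate cell and smooth muscle markers (2.14, each gene centred over the cows) and the lowest mean of hepatocyte markers (-0.43). Other biopsies stood apart as well. CONLC cows 103 (2.83) and 166 (1.67) were high in stellate cell and smooth muscle markers. GLYHC cows 154 (2.32), 32 (1.87) and 117 (1.73) were high in epidermis markers. Most of these markers were little read, at most 4.66 CPM for KRT1, 3.23 for KRT10, 0.717 for KRT5, 0.669 for KRT14 and 0.293 for SFN. DSP, by far the most read (median 103 CPM), was highest in GLYLC cow 905. CONLC cow 166 also had the highest score of all cows for bile duct (0.81) and endothelial markers (0.52). GLYHC cow 117 was the highest for lymphocyte markers (0.93) and CONLC cow 103 for red blood cell markers (1.62). Several of these cows also held the top values of immediate early genes, and the part of other tissue in those values was not tested. For the 10 genes and for called genes, the main results that lean on such a biopsy are given without it. In bulk tissue, fewer cells of a kind and less RNA per cell cannot be told apart.

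The Fos and Jun proteins pair with each other, and with members of the ATF family, to form the transcription factor AP-1. FOS ranged in CONHC from 0.716 over a median of 2.74 to 6.85 CPM and in CONLC from 0.551 over 2.35 to 39.8 CPM. In GLYHC it lay between 0.705 and 5.21 CPM (median 3.30), and in GLYLC between 0.585 and 7.08 CPM (median 1.24). All of the groups overlapped, and the highest value, that of CONLC cow 166, was 72.1 times the lowest, that of CONLC cow 259. FOSB, a close relative of FOS, was the least read of the 10 genes, with 742 reads over all cows and at most 97 in a cow. Its levels ran from 0 to 2.15 CPM in CONHC (median 1.13), from 0.343 to 4.66 CPM in CONLC (1.57), from 0.176 to 2.50 CPM in GLYHC (1.12) and from 0.106 to 1.10 CPM in GLYLC (0.257). The 7 GLYLC values stood for 2 to 24 reads each. Their median was the lowest of the 4, although their range ran into those of the other groups, and CONHC cow 170 was the only cow with no FOSB read.

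JUN, the usual partner of FOS, ranged from 6.42 to 24.7 CPM in CONHC (median 13.1), from 6.14 to 22.3 CPM in CONLC (13.5), from 7.36 to 16.8 CPM in GLYHC (13.4) and from 7.86 to 21.7 CPM in GLYLC (9.13). The top of GLYLC was cow 912, and the next cow of that group stood at 11.8 CPM. JUNB, which can take the place of JUN in the dimer and is a weaker activator, was read at 4.49 to 11.8 CPM in CONHC (median 8.45) and 2.76 to 11.4 CPM in CONLC (5.49). In GLYHC it reached from 4.67 to 30.9 CPM (8.44) and in GLYLC from 3.56 to 15.4 CPM (5.50). Medians of both HC groups were above those of both LC groups, with wide overlap of the single cows. ATF3, a stress-induced factor of the ATF family that often acts as a repressor, varied little by comparison, between 5.64 CPM in GLYHC cow 37 and 21.6 CPM in GLYLC cow 912. Its group medians were 10.7 CPM in CONHC, 10.8 in CONLC, 9.75 in GLYHC and 8.94 in GLYLC.

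**Figure D1:**
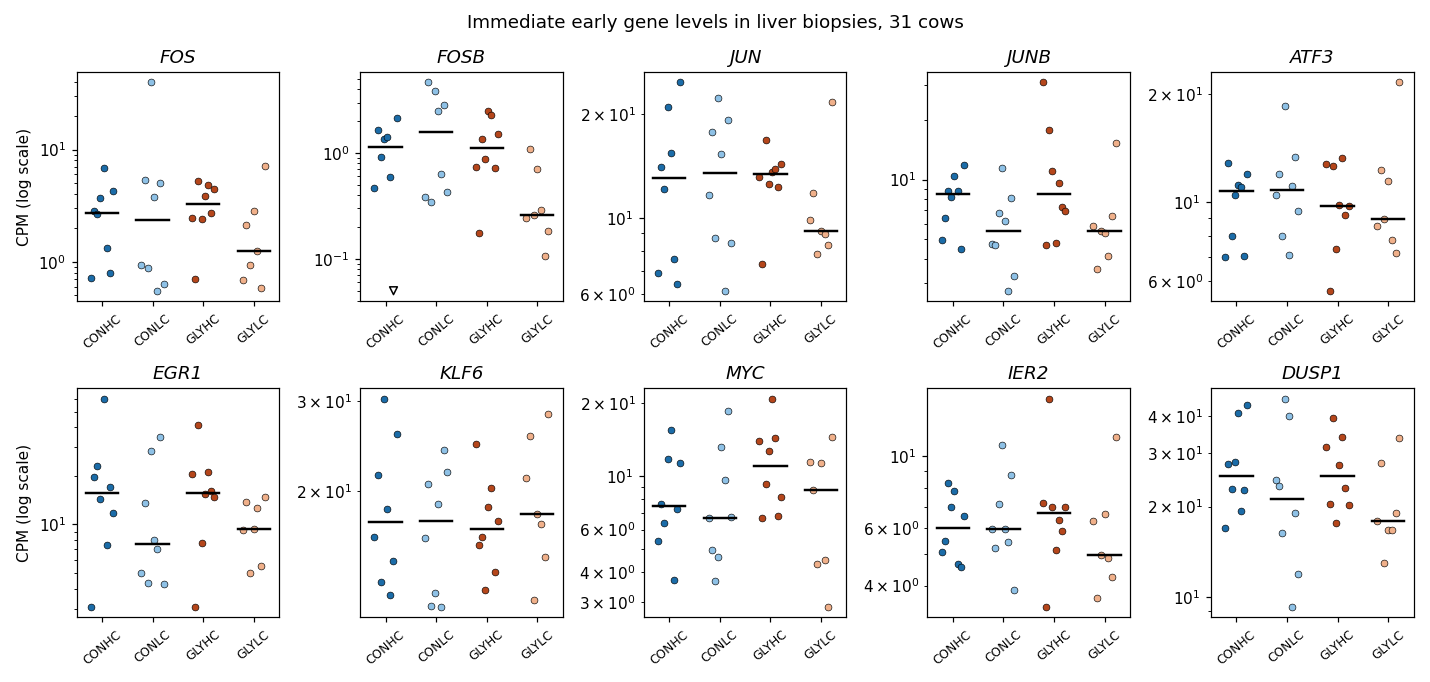
Levels of the 10 immediate early genes in CPM on a log scale (TMM-scaled), with 1 point for each of 31 cows and a bar at the group median. The open triangle marks CONHC cow 170, which had 0 reads of FOSB, and the ranges of the 4 groups overlap for all 10 genes.

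EGR1 is a zinc finger factor that responds to growth factors through the ERK kinase pathway. It ranged from 3.08 to 60.2 CPM in CONHC (median 15.8), from 4.30 to 34.6 CPM in CONLC (7.51), from 3.08 to 41.4 CPM in GLYHC (15.7) and from 4.99 to 14.9 CPM in GLYLC (9.42). As for JUNB, both HC medians were above both LC medians and the groups overlapped. KLF6, a Krüppel-like zinc finger factor also induced in injured liver, had the narrowest range, from 11.8 to 30.4 CPM or 2.57-fold over all cows, with group medians between 16.8 CPM (GLYHC) and 18.0 CPM (GLYLC). MYC, which drives growth and ribosome production, ran from 2.87 CPM in GLYLC cow 905 to 20.9 CPM in GLYHC cow 131. Its group medians were 7.49 CPM in CONHC, 6.72 in CONLC, 11 in GLYHC and 8.71 in GLYLC.

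IER2, a nuclear protein named for its immediate early response, ranged from 3.44 CPM in GLYHC cow 37 to 15.1 CPM in GLYHC cow 117, so that a single group held both ends. Its group medians lay between 4.99 CPM (GLYLC) and 6.67 CPM (GLYHC). DUSP1 codes for a phosphatase that switches off the MAP kinases which induce the other genes, and it is also induced by glucocorticoids. It was read at 9.29 CPM in CONLC cow 259 and at 45.7 CPM in CONLC cow 166, again the 2 ends within 1 group, and its medians ran from 18.0 CPM (GLYLC) to 25.3 CPM (GLYHC). Ordered by mean log2 CPM, GLYLC was the lowest group for 7 genes (FOS, FOSB, JUN, EGR1, IER2, MYC and DUSP1), CONLC for JUNB and KLF6, and GLYHC for ATF3. For all 10 genes each of the 3 steps between neighbouring groups was smaller than the larger SD of the pair, which puts every step within the spread between cows. This sets steps against single cows and is not a test of group means. From the highest to the lowest group FOSB differed by 1.675, more than its largest group SD of 1.482, and it was the only gene to do so.

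To ask whether concentrate or glyphosate changed these genes, edgeR's quasi-likelihood test was run on all 15916 genes with the 4 groups in 1 model. Calls required an unadjusted p under 0.05 together with a Benjamini-Hochberg adjusted p under 0.1 over all genes. Log2 fold changes are given with their SE and 95% confidence interval. In CONHC against CONLC 0 of the 10 immediate early genes was called, beside 0% of all genes, and 0 of 10 reached an unadjusted p under 0.05, beside 5.96% of all genes. The background depended on the tool, since DESeq2 called 27 of all genes with all cows in the fit and 81 with only these 2 groups, with 0 members among them in either case. FOS differed by -1.32 on the log2 scale (SE 0.70, interval -2.73 to 0.10, adjusted p = 0.840 by edgeR). Without CONLC cow 166, whose FOS level was far above the rest of its group, this value turned to 0.23. The median log2 fold change of the 10 genes was -0.002, beside -0.015 over all genes, with 5 genes higher and 5 lower.

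Under glyphosate, GLYHC against GLYLC gave 0 called members, beside 0.201% of all genes. The background call count of 32 genes fell to 0 without GLYLC cow 912, GLYHC cow 32 or GLYHC cow 154. FOSB and JUNB were past an unadjusted p of 0.05, 2 of 10 beside 12.5% of all genes. FOSB differed by 1.57 (SE 0.64, interval 0.26 to 2.87, adjusted p = 0.298 by edgeR). JUNB differed by 0.81 (SE 0.36, interval 0.07 to 1.55, adjusted p = 0.353 by edgeR), and the value moved with single biopsies: it was 0.42 without GLYHC cow 32, the highest of its group, and 1.17 without GLYLC cow 912, the highest of the other. Of the 10 genes 8 had a higher mean in GLYHC, and their median log2 fold change was 0.42, beside -0.008 over all genes. The lower ones were ATF3 at -0.15 and KLF6 at -0.17, with intervals from -0.60 to 0.29 and from -0.58 to 0.24.

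Glyphosate against control under high concentrate, GLYHC against CONHC, gave 0 called members beside 0% of all genes, and none of the 10 reached an unadjusted p under 0.05, beside 2.92% of all genes. The difference farthest from 0 was that of JUNB, at 0.55 (SE 0.35, interval -0.17 to 1.26), followed by MYC at 0.43 (interval -0.28 to 1.13). For FOS the interval, from -1.25 to 1.62, left room for more than a doubling in either direction. In ATF3 the same interval ran only from -0.43 to 0.45.

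Under low concentrate, GLYLC against CONLC gave 0 called members, beside 0.0628% of all genes, and 2 members past an unadjusted p of 0.05, beside 5.65% of all genes. The background count of 10 genes was unsteady. It fell to 0 without GLYLC cow 912, but also without any single CONLC cow, and rose to 41 without GLYLC cow 209. FOSB differed by -2.22 (SE 0.64, interval -3.52 to -0.92, adjusted p = 0.316 by edgeR). Its unadjusted p, the smallest among all members and comparisons, stayed under 0.05 in all 31 fits that left out 1 cow, with log2 fold changes from -2.64 to -1.92. The adjusted p in those fits ran from 0.168 to 1, and in the 10 other alternatives from 0.310 to 1. FOS differed by -1.67 (SE 0.73, interval -3.15 to -0.19, adjusted p = 0.80 by edgeR), but by -0.12 without CONLC cow 166 and by -2.32 without GLYLC cow 912. The highest FOSB value of CONLC came from cow 103 and the highest FOS value from cow 166, the cows with the high stellate cell and smooth muscle scores, and the FOSB difference was -1.92 without cow 103. In this comparison 8 of the 10 genes were lower under glyphosate, with a median of -0.169 beside -0.002 over all genes.

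**Figure D2:**
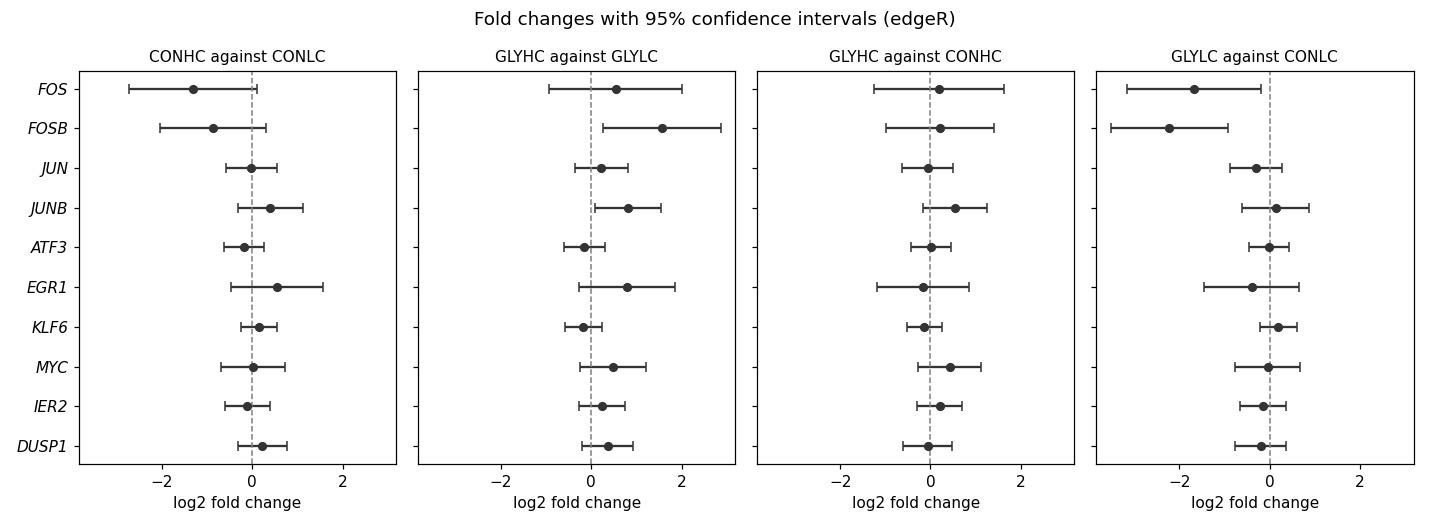
Log2 fold change (point) and 95% confidence interval (bar) of the 10 immediate early genes in the 4 comparisons between groups, from edgeR. Intervals of FOSB and JUNB in GLYHC against GLYLC and of FOS and FOSB in GLYLC against CONLC leave out 0, and none of these differences was called after adjustment over all genes.

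Whether the effect of concentrate differed between GLY and CON cows was tested as an interaction. It gave 0 called members beside 0% of all genes, and 1 member, FOSB, past an unadjusted p of 0.05, beside 4.21% of all genes. The FOSB interaction was 2.43 (SE 0.86, interval 0.68 to 4.18, adjusted p = 0.999 by edgeR). Of the 10 interactions 9 were above 0, with a median of 0.29 beside 0.009 over all genes, and KLF6 had the negative value, at -0.32 (interval -0.89 to 0.25). Averaged over treatments, HC against LC gave 0 called members, beside 1.45% of all genes, and 1 member past an unadjusted p of 0.05, beside 13.7% of all genes. This was JUNB, at 0.60 (SE 0.25, interval 0.09 to 1.12, adjusted p = 0.271 by edgeR), which became 0.41 without GLYHC cow 32, a biopsy with a high epidermis score. The same cow was the highest of all for other early genes, among them SOCS3 (17.8 CPM, median of all cows 1.97) and GADD45B (20.5 CPM, median 4.68). The bearing of either on its JUNB level was not tested. After JUNB came EGR1 with 0.67 (interval -0.06 to 1.39, adjusted p = 0.412 by edgeR). Averaged over concentrate, GLY against CON gave 0 called members beside 0% of all genes and 0 members past an unadjusted p of 0.05, beside 3.92% of all genes. FOSB was the farthest from 0 there, at -0.92 (interval -1.93 to 0.08). These 7 comparisons share cows, so their values are not independent of each other. Nor are the 10 genes, whose levels moved together between cows, so the counts of genes higher or lower and their medians are descriptions only.

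The same comparisons were read for 40 further immediate early and delayed early genes, and 0 of the 40 were called in any of the 7. At an unadjusted p under 0.05, 7 of them were higher and 0 lower in GLYHC against GLYLC, and 7 higher and 1 lower in HC against LC, beside 12.5% and 13.7% of all genes in either direction, so that these counts lie near the background. In GLYLC against CONLC 1 was higher and 3 were lower, and in each of the other 4 comparisons no more than 3 were past it. NR4A1, an orphan nuclear receptor that is itself an immediate early gene, had a log2 fold change of -1.12 in GLYLC against CONLC (SE 0.36, adjusted p = 0.454 by edgeR). EGR2, a relative of EGR1, stood at -1.36 there (SE 0.58, adjusted p = 0.80 by edgeR). Both were highest in CONLC cow 166, NR4A1 at 4.68 CPM (median of all cows 1.19) and EGR2 at 1.1 CPM (median 0.326). EGR2 was near the floor, with no read in 2 cows. Neither difference was read without cow 166. BTG1, an antiproliferative gene, had 0.49 in CONHC against CONLC (SE 0.15, adjusted p = 0.465 by edgeR). In HC against LC, KLF10, a TGF-beta induced zinc finger factor, had 0.37 (SE 0.11, adjusted p = 0.123 by edgeR) and GADD45A, a growth arrest gene, 0.38 (SE 0.14, adjusted p = 0.209 by edgeR). DUSP2, a nuclear MAP kinase phosphatase, had 0.70 in GLYHC against GLYLC (SE 0.26, adjusted p = 0.260 by edgeR). GADD45A was highest in GLYHC cow 32 and DUSP2 in GLYHC cow 117, and their differences were not read without those cows.

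Cows of the same group differed strongly in these genes. The biological coefficient of variation from edgeR, the SD between cows as a share of the level once counting noise is taken off, was 0.906 for FOS, 0.775 for FOSB and 0.666 for EGR1. Over the 11835 genes of at least 1 CPM its median was 0.182, and FOS stood at the 98.4th percentile, FOSB at the 98th and EGR1 at the 97.3rd. JUNB (0.477), MYC (0.469), JUN (0.377), DUSP1 (0.368) and IER2 (0.332) followed between the 94.7th and the 87.5th percentile. ATF3 (0.294) and KLF6 (0.271) were the steadiest, at the 83rd and 78.8th. This spread sets the width of the intervals above, which was largest for FOS and FOSB.

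The joint variation was described by correlating log2 CPM (prior count of 2) over the 31 cows after the mean of the feeding group had been subtracted. All 45 pairs of the 10 genes had a positive Spearman rho, with a median of 0.542 (jackknife SE 0.086) and a range from 0.137 to 0.908. For all pairs among the 11835 genes the median rho was -0.002, with -0.429 and 0.444 as the 5th and 95th percentiles, and 2.11% of them exceeded 0.542. Of the 45 pairs 40 were past an adjusted p of 0.1 in a two-sided permutation test, by Spearman and likewise 40 by Pearson. Without GLYLC cow 912 there were 37, since ATF3 with MYC, IER2 with MYC and IER2 with DUSP1 then missed the threshold. The median rho of the 45 pairs was then 0.478, the lowest with any single cow left out. The first principal component held 58.1% of the variance of the 10 genes and the second 13.5%. Both members of a pair come from the same library and share its scaling factor, as do those of all other gene pairs.

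FOS and JUN, the classic partners in AP-1, formed the tightest pair. Their rho was 0.908 and Pearson's r 0.855 (permutation p = 1e-05 for both, the smallest that the permutations can give, adjusted p = 9e-05 for rho). Leaving out the 2 cows farthest from the median of FOS gave an r of 0.862. Within the groups rho was 0.905 in CONHC, 0.976 in CONLC, 0.905 in GLYHC and 0.643 in GLYLC. The values within groups rest on 7 or 8 cows each and were not tested.

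JUN with DUSP1 had a rho of 0.803 (r = 0.779, 0.737 without the 2 cows farthest in JUN), and FOS with FOSB 0.80 (r = 0.749, then 0.767). The permutation p was 1e-05 for both rho values, with an adjusted p of 9e-05. In GLYLC alone FOS with FOSB had a rho of 0.429, against 0.857, 0.762 and 0.690 in CONHC, CONLC and GLYHC, a difference that was not tested. JUNB ran with IER2 at a rho of 0.770 (r = 0.764, 0.805 without 2 cows, permutation p = 1e-05, adjusted p = 9e-05), and KLF6 with MYC at 0.652 (r = 0.637, then 0.596, permutation p = 0.00011, adjusted p = 0.00045). Neither JUNB nor IER2 passed with KLF6: rho was 0.137 for JUNB with KLF6 and 0.175 for IER2 with KLF6 (permutation test, adjusted p = 0.461 and 0.360).

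The other pairs that missed the threshold were JUNB with MYC (0.164), FOSB with JUNB (0.225) and FOSB with IER2 (0.292), with adjusted p of 0.385, 0.237 and 0.121 in the permutation test. The median rho of a gene with the other 9 was highest for FOS (0.696) and JUN (0.662). EGR1 (0.574), ATF3 (0.545), DUSP1 (0.544) and FOSB (0.541) came next, then KLF6 (0.469), IER2 (0.466) and JUNB (0.463), with MYC last (0.398). Of the 40 pairs past the threshold by Spearman, 35 also had an unadjusted Pearson p under 0.05 (permutation test), and 30 of these kept it without the 2 cows farthest from the median of either gene. Those that lost it were FOSB with KLF6, FOSB with MYC, EGR1 with MYC, ATF3 with KLF6 and ATF3 with MYC. A lost threshold does not mean a lost relation, since the r values moved unequally. For FOSB with KLF6 r was 0.405, then 0.358 and 0.446 without the cows farthest in the first and in the second gene. For ATF3 with MYC it was 0.377, then 0.246 and 0.299. FOS with KLF6, FOS with MYC, EGR1 with KLF6, IER2 with MYC and MYC with DUSP1 had a Pearson p above 0.05 over all cows (permutation test). The median rho over the 45 pairs was 0.643 within CONHC, 0.476 within CONLC, 0.50 within GLYHC and 0.429 within GLYLC.

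**Figure D3:**
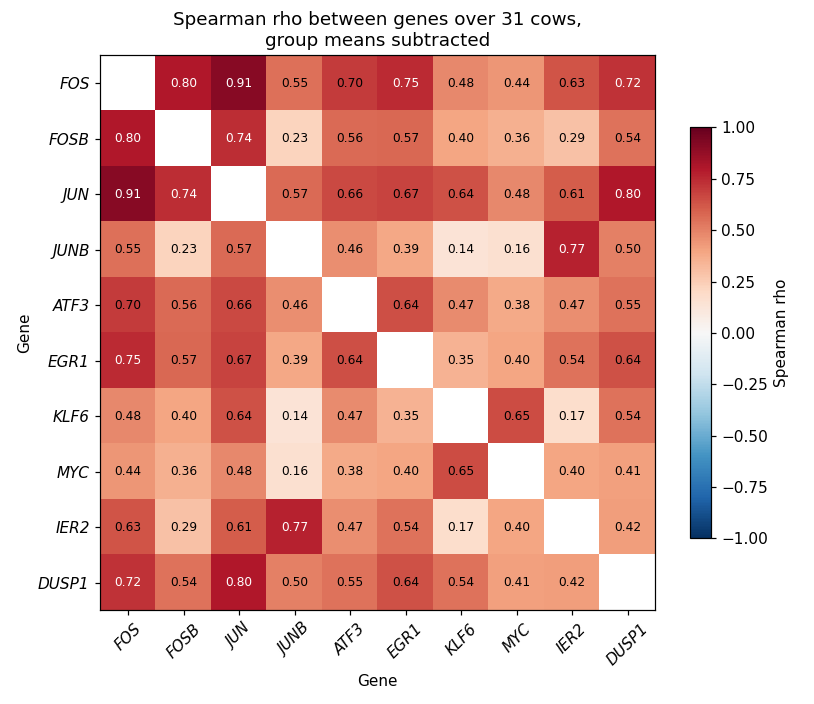
Spearman rho for the 45 pairs of immediate early genes over 31 cows with group means subtracted. FOS with JUN is the highest at 0.908 and JUNB with KLF6 the lowest at 0.137, and no value is negative.

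Single biopsies carried many of the genes at once. CONLC cow 166 was among the 5 highest of the 31 cows for 8 of the 10 genes, GLYLC cow 912 for 7, CONLC cow 260 for 6 and GLYHC cow 117 for 5. CONHC cows 134 and 208 had 4 each. At the other end, GLYHC cow 37 was among the 5 lowest for 6 genes, and CONHC cow 170, CONLC cows 259 and 941 and GLYLC cow 905 for 5 each. Every group thus held biopsies at both ends. In GLYLC, however, the high end was cow 912, the biopsy with intestinal transcripts. Of the other GLYLC cows only cow 102 was among the 5 highest, for 1 gene. Neither CONLC cow 166 nor GLYLC cow 912 was high throughout. MYC in CONLC cow 166 stood at 4.64 CPM and KLF6 at 12.6 CPM, the latter among the 5 lowest of all cows. FOSB in GLYLC cow 912 stood at 0.183 CPM, also among the 5 lowest. In CONHC cow 134 and GLYHC cow 152 all 10 genes were above the median of all cows, whereas in CONHC cow 7, GLYHC cow 37 and GLYLC cows 147, 544 and 905 none was.

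**Figure D4:**
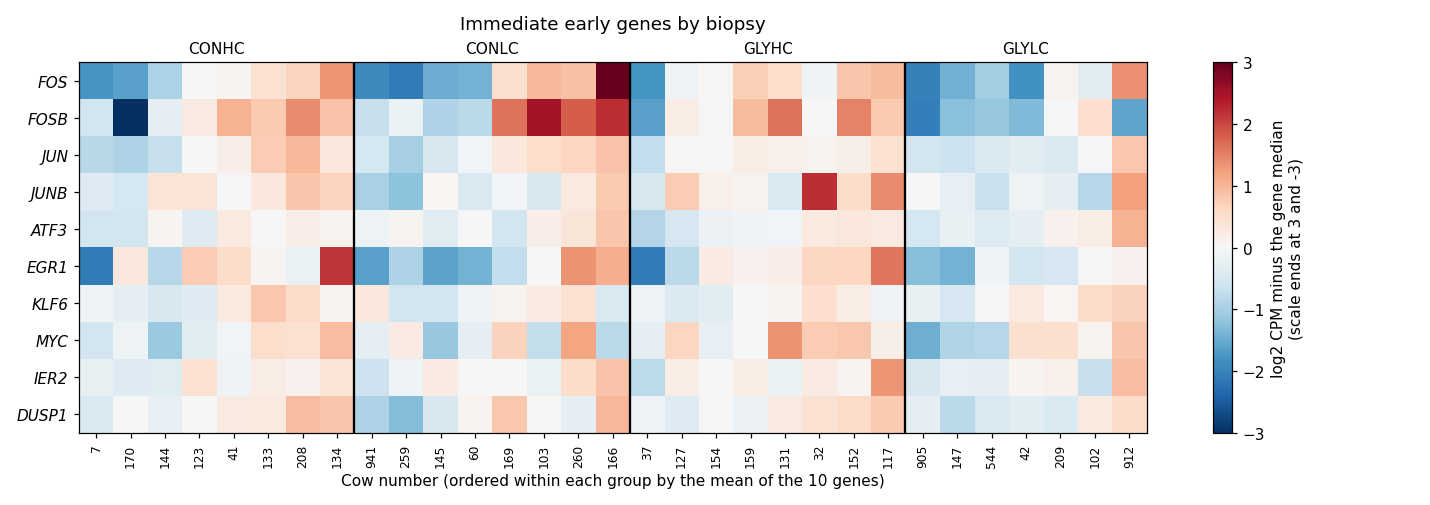
Log2 CPM of each immediate early gene minus its median over 31 cows, with cows in columns by group and ordered within a group by the mean of the 10 genes. Red columns such as CONLC cow 166 and GLYLC cow 912 and blue ones such as GLYHC cow 37 and GLYLC cow 905 show most of the 10 genes high together or low together in a biopsy.

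Outside the 10 genes, those with the most similar pattern were ranked by their median rho with the members over 31 cows, group means subtracted, among genes of at least 1 CPM. The closest was ENSBTAG00000007883, for which the table gives no symbol, at 0.670. TRIB1, a pseudokinase, followed with 0.628, PLK2, a polo-like kinase, with 0.622, SERTAD1 with 0.618 and CYR61, a matricellular protein gene and classic immediate early gene, with 0.615. JOSD1 (0.614), EIF4A1 (0.611), an RNA helicase of translation initiation, LHFPL2 (0.609), BTG3 (0.608) and PRDX1 (0.601), a peroxiredoxin, completed the first 10. TRIB1, PLK2 and CYR61 were on the list of 40 further immediate early and delayed early genes. Not every gene of that list ran along: the median rho was -0.110 for FOSL2, a Fos relative, -0.051 for DUSP6 and -0.234 for ZFP36L1.

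The members were then set against the mean log2 CPM of 14 lists of genes and against log2 total reads, 150 relations in all with group means subtracted. Of these 20 were past an adjusted p of 0.1 in the permutation test. The list of further immediate early and delayed early genes took 10 of the 20, with rho from 0.547 for MYC to 0.840 for JUN. Total reads showed no relation past the threshold, with rho between -0.309 (EGR1) and 0.203 (IER2). The count of 20 fell to 12 without CONLC cow 166 and to 13 without CONHC cow 7.

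Of the cell type lists, that of neutrophil and monocyte markers was past the threshold with 7 of 10 members. Spearman's coefficient was 0.583 for JUN (r = 0.629, 0.580 without the 2 farthest cows, adjusted p = 0.0105, permutation test) and 0.577 for FOS (r = 0.595, then 0.567, adjusted p = 0.0120, permutation test). These 2 relations were past the threshold in all 31 leave-one-out fits. For JUNB (0.496), EGR1 (0.493), FOSB (0.490), ATF3 (0.463) and IER2 (0.452) the call was lost in 3, 5, 7, 10 and 16 of those fits. EGR1 and ATF3 had an r of 0.553 and 0.466 over all cows, and of 0.342 and 0.350 without the 2 farthest cows (permutation p = 0.0685 and 0.0624). KLF6, MYC and DUSP1 had rho values of 0.19, -0.10 and 0.35 with these markers.

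Within the groups the relation was uneven. For JUN it was 0.548 in CONHC, 0.905 in CONLC, 0.810 in GLYHC and -0.321 in GLYLC, and for FOS it was 0.381, 0.857, 0.738 and -0.036. All 9 neutrophil and monocyte markers were read in every cow. Their summed level lay between 73.5 and 199.6 CPM in CONHC, 49.3 and 173.6 in CONLC, 60.4 and 174.6 in GLYHC and 60.4 and 129.9 in GLYLC. FCGR3A (median of all cows 56.8 CPM) and LYZ (26.2) were the most read of the 9. MPO (0.394), CXCR2 (0.657), S100A8 (1.18) and S100A9 (1.43) were near the floor, yet each counts the same in the mean used for the relations. S100A12 (0.411), CSF3R (0.377) and LYZ (0.301) had the highest median rho with the members, and LYZ, which codes for lysozyme, rose in HC against LC by 1.16 (SE 0.29, adjusted p = 0.0683 by edgeR), a call lost without CONHC cow 133, GLYHC cow 32 or GLYHC cow 159. The part of these cells in the members' levels was not tested.

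The remaining relations past the threshold were single ones. FOSB ran with bile duct markers at 0.473 (r = 0.482, 0.422 without 2 cows, adjusted p = 0.0678, permutation test) and against glucocorticoid-responsive genes at -0.445 (r = -0.378, then -0.466, adjusted p = 0.0928, permutation test). MYC ran against red blood cell markers at -0.451 (r = -0.510, then -0.421, adjusted p = 0.0901, permutation test). The call was lost in 14, 16 and 13 of the 31 leave-one-out fits. No member passed with the lists of hepatocyte, Kupffer cell, lymphocyte, endothelial, stellate cell and smooth muscle, intestinal or epidermis markers, nor with those of heat shock genes or of upstream kinases and transcription factors. DUSP1, a known glucocorticoid target, had a rho of -0.04 with the glucocorticoid list.

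**Figure D5:**
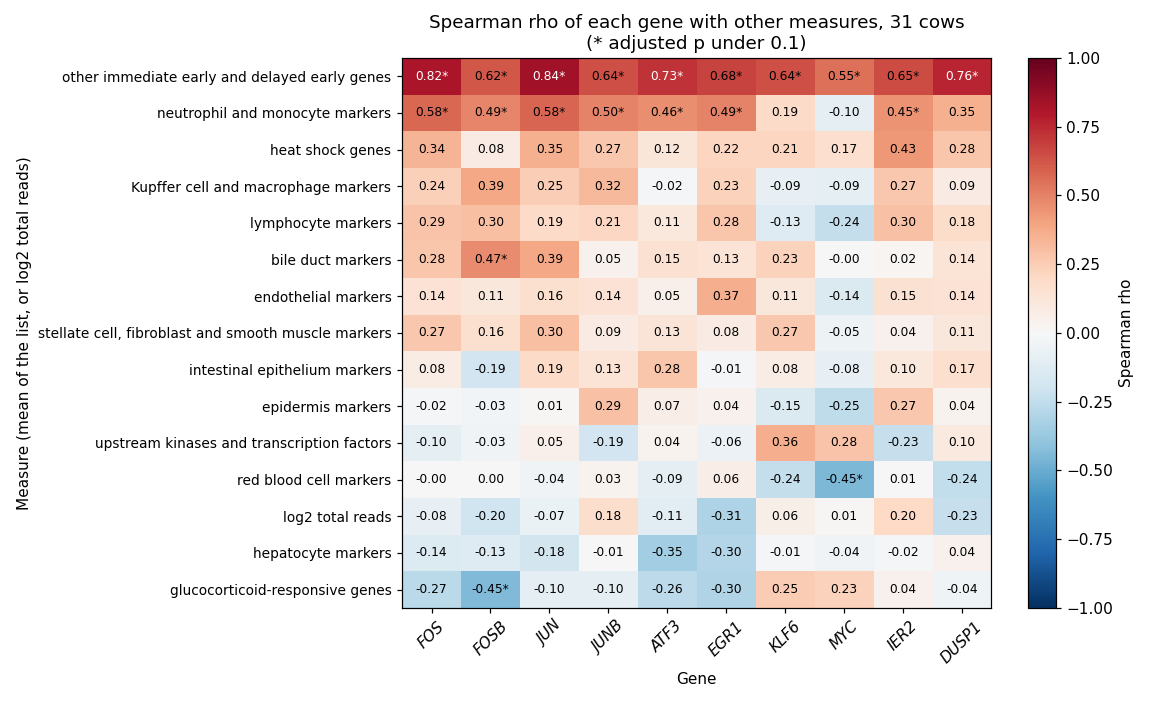
Spearman rho of each immediate early gene (columns) with the mean of 14 gene lists and with log2 total reads (rows) over 31 cows, group means subtracted. Asterisks mark the 20 relations at an adjusted p under 0.1, of which 10 are with further immediate early and delayed early genes and 7 with neutrophil and monocyte markers.

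Within each of these lists, the genes with the highest median rho with the members were as follows. APOA1 reached a median rho of 0.461 among hepatocyte markers (AHSG 0.203, TTR -0.031), SDS 0.435 among glucocorticoid-responsive genes (CDKN1A 0.062, FKBP5 0.023) and MAP2K1 0.359 among upstream kinases and transcription factors (SRF 0.273). Lymphocyte markers were led by CCL5 (0.358), CD3E (0.250) and NKG7 (0.240), Kupffer cell markers by CD68 (0.309), CD163 (0.302) and VSIG4 (0.297), and heat shock genes by HSPA8 (0.325), HSPA1A (0.302) and HSPH1 (0.296). In the bile duct list SPP1 (0.297), KRT7 (0.288) and EPCAM (0.060) came first, in the stellate cell list LUM (0.256), TAGLN (0.157) and ACTA2 (0.154), and in the endothelial list LYVE1 (0.247), ENG (0.187) and KDR (0.154). Of the intestinal markers VIL1 (0.246), FABP2 (0.142) and LGALS4 (-0.190) led, of the red blood cell markers HBB (-0.009) and of the epidermis markers DSP (-0.264).

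Several genes of these lists passed the test between groups where no immediate early gene did, and most of those calls were lost in some leave-one-out fits. In HC against LC the heat shock gene HSPA8 fell by 0.48 on the log2 scale (SE 0.11, adjusted p = 0.0423 by edgeR) and was called in all 31 leave-one-out fits, as was the stromal gene DCN, which fell by 0.50 (SE 0.10, adjusted p = 0.0275 by edgeR). The macrophage marker CD68 rose by 0.61 (SE 0.17, adjusted p = 0.0948 by edgeR), a call kept in 9 of those fits. DCN and the smooth muscle genes TAGLN and MYH11 were also called lower in GLYHC against GLYLC, and TAGLN in HC against LC, but TAGLN (170 CPM, median of all cows 9.42) and MYH11 (737 CPM, median 32.8) peaked in GLYLC cow 912. Without that cow no gene at all was called in GLYHC against GLYLC, these 3 included. The call of TAGLN in HC against LC was lost as well. In GLYHC against GLYLC the value moved from -2.44 to -0.99 for TAGLN and from -2.30 to -0.52 for MYH11. That of DCN stayed, at -0.65 with the cow and -0.69 without it. The intestinal genes FABP2, MUC13 and OLFM4 were called lower in GLYHC against GLYLC and in HC against LC, and FABP2 and OLFM4 higher in GLYLC against CONLC, and without cow 912 they did not pass the filter on reads. The epidermis genes KRT1, called higher in both GLYHC against GLYLC and HC against LC, and KRT14, called higher in HC against LC, had no read in 22 and 17 cows and were highest in GLYHC cow 154 and GLYHC cow 32. Their calls were lost without either of these biopsies and without cow 912, and that of KRT14 was kept in only 8 of the 31 fits. The KRT1 value in GLYHC against GLYLC was 6.52, and still 6.38 without cow 912.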

How the data were processed

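Total RNA of 31 liver biopsies was sequenced from stranded mRNA libraries. The authors trimmed reads with Trim Galore (minimum Phred score 20), aligned them to UMD3.1 (Ensembl release 93) with HISAT2 2.1.0 and took gene counts of unique alignments from HTSeq 0.8.0. The strand setting is not given in the sources used here. The deposited raw counts of 24616 genes were used. The authors' normalized table, in which the same counts are divided by 1 factor per cow, was not used. Columns were matched to cows by group and animal number.

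The 10 genes and the other lists were chosen with earlier results of these data known. Genes with at least 20 reads over all cows were tested with edgeR 4.0.16 in R 4.3.3 (TMM, quasi-likelihood F test, 4 groups in 1 model, additive models for HC against LC and GLY against CON). DESeq2 1.42.0 was an alternative, as were RLE and upper-quartile factors, filters of 1 read and of filterByExpr with 10 reads, a robust fit, an adjusted p under 0.05, total reads as a covariate, fits to the 2 compared groups and each cow left out. Correlations used log2 CPM, 100000 permutations and scipy 1.17.1, numpy 2.4.6 and pandas 2.3.3 in Python 3.11.15, and their alternatives were RLE factors, a prior count of 0.5, group means not subtracted, Pearson's r, an adjusted p under 0.05, total reads regressed out (pairs) and each cow left out. p-values are two-sided and Benjamini-Hochberg adjusted over 15916 genes, 45 pairs or 150 relations. Both steps were tested on simulated data.

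Genes named beside the 10 were the 10 with the most similar pattern and, from each list, any called gene and the 3 with the highest median rho, with the 5 of smallest p from the list of further early genes. Of the genes this rule covers, 1 was left out. JUND, KLF2, CEBPB, SIK1, SOX9, HBA1, CDX1 and CDX2, also on the lists, were not analysed here, and HBA, SLC4A1, KRT15 and DSG1 had fewer than 20 reads. EGR2, FOSL2, DUSP6, ZFP36L1, SOCS3 and GADD45B were named after their values were seen. Promoter and protein sequences were not used here.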

Additional observations from a re-analysis of the deposited data

Results flagged for a closer look

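Values in CPM were screened for single cows far from the rest of their group, over 40 sets (10 genes in 4 groups). A cow was picked out where its gap to the nearest other cow, as a share of the group's range, exceeded Dixon's 95% critical value. With normally distributed values chance alone does this in about 1 of 20 sets. CPM values can be skewed to the high side, as for FOS in CONLC (median 2.35, mean 7.10). That rate therefore does not apply here, and the number of picked values cannot be read as an excess. There were 9 such values, all of them high, and several belong to the same biopsy. GLYLC cow 912 gave 5 of them: FOS at 7.08 CPM (next cow 2.86), JUN at 21.7 CPM (next 11.8), JUNB at 15.4 CPM (next 6.55), ATF3 at 21.6 CPM (next 12.3) and IER2 at 11.5 CPM (next 6.63). This is the biopsy that also held the intestinal transcripts, and the bearing of those on the early genes was not tested. GLYHC cow 117 gave EGR1 at 41.4 CPM (next 21.2) and IER2 at 15.1 CPM (next 7.18). CONLC cow 166 had 39.8 CPM of FOS, against 5.32 CPM in the next cow of CONLC. CONHC cow 134 had 60.2 CPM of EGR1, against 22.9 CPM in the next cow. No interaction of treatment with concentrate was called for any of the 10 genes by edgeR.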

How the results depend on the processing

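None of the 10 genes was called in any of the 7 comparisons under any alternative run, DESeq2 included, although the count over all genes moved, in CONHC against CONLC from 0 to 81 with DESeq2 on the 2 compared groups. Signs of single differences changed in 114 of 2810 alternative values, none of them called or at an unadjusted p under 0.05 in the fit reported. Of the 45 pairs, between 37 and 41 were past the threshold with a cow left out and between 38 and 41 under the other settings. The relations with other measures were less steady: 20 in the fit reported, 12 at an adjusted p under 0.05, and between 12 and 20 with a cow left out. No paired analysis was possible because the groups hold different cows and share no animal numbers. Depth limits FOSB most, with 0 to 97 reads per cow. Each cow gave 1 biopsy at week 16, so variation between biopsies of a cow cannot be told apart from variation between cows.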
